A study of Mus musculus with 24 samples.

Results

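Interferon-stimulated genes are the genes that cells switch on when interferons reach them, and 37 of them are described here in differentiating mouse adipocytes, out of 52089 gene symbols in the deposited table. The members were a list of gene symbols, and for each symbol 1 transcript entry was read, a curated RefSeq mRNA entry where the table had one and otherwise the entry with the highest mean level. The list matched 258 of 168326 transcript entries. A curated mRNA entry was available for 35 members, while Mx1 was read from NR_003520 and Mx2 from ENSMUST00000024112.

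All libraries came from primary cells of 129SvEv mice, which the study's methods name 129S6sv/ev and describe as young males. Preadipocytes from the stromal-vascular fraction of inguinal white fat received 2 days of induction and then 1 day of differentiation medium with rosiglitazone, a PPARγ agonist that drives the thermogenic (brite) programme. Every culture was then reverse transfected with 50 nM of an LNA gapmer, a short chemically modified DNA strand that pairs with an RNA and has it cut by RNase H, so the controls carried a gapmer as well and no untransfected cells were compared here. The gapmer was directed either against the long noncoding RNA Ctcflos (knockdown, KD) or against no mouse transcript (nontargeting control, NC), and cells were harvested 24 h or 72 h later, with 6 libraries in each of the 4 groups. The study calls the replicates of its transcriptome experiment biological. The labels do not say which of the study's Ctcflos gapmers a library received, nor which libraries came from separate animals or cultures, so the p-values measure the spread between these libraries. Time after transfection and time in differentiation advanced together and cannot be told apart.

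Interferons bind receptors at the cell surface, and the receptor-bound kinases JAK1 and TYK2 phosphorylate STAT proteins such as STAT2. With IRF9 these form the factor ISGF3, which binds the interferon-stimulated response element (ISRE) in the promoters of its target genes. The products sense foreign RNA and DNA, block viral replication, or attach the ubiquitin-like protein ISG15 to other proteins, and several of them, such as IRF7, STAT2 and IRF9, feed back on the response. Transfected nucleic acids are known to be able to engage the same sensors, and adipocytes carry interferon receptors.

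Promoters of the members were searched for the ISRE as GAAANNGAAA on both strands, counting overlapping matches separately. RefSeq promoter windows on GRCm38.p6, from 250 bases before to 50 after each start, were matched for 28 of the 37 members. A match lay in 14 of these 28 (50.0%), against 3.92% of 26921 other symbols. The gamma-activated site, searched as TTCNNNGAA, lay in 7 members (25.0%) against 9.51% of the other symbols. In 32851 windows of all genes the shares were 3.44% and 8.3%. Of 21 ISRE matches in members, 11 lay within 100 bases before the start, and offsets ran from -222 to 32 with a median of -72. A match is a run of letters and not a measured binding site. For 4 members that the results turn on, the 200 bases before the start are shown with the ISRE matches in capitals, on the strand of the gene. Isg15 (chr4:156200819-156201018, minus strand) held 3 overlapping matches, Ifit3 (chr19:34583329-34583528, plus strand) 2 separate ones, Rsad2 (chr12:26456453-26456652, minus strand) 1, and Gbp3 (chr3:142559844-142560043, plus strand) 2 overlapping ones.
Isg15: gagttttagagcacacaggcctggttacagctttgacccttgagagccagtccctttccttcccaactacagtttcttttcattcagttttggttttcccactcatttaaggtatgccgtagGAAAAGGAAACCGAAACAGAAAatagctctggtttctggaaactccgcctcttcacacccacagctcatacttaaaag
Ifit3: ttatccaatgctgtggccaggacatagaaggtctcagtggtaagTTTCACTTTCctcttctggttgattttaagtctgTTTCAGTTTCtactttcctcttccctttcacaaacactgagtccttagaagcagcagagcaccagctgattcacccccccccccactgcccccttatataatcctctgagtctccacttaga
Rsad2: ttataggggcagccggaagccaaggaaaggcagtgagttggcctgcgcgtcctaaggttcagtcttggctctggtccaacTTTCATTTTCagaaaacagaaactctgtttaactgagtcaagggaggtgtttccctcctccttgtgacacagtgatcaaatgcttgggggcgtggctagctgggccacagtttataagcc
Gbp3: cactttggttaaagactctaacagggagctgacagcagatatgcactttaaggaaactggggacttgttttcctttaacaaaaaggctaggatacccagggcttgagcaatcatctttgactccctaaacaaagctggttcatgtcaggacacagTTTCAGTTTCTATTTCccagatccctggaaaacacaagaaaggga

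Libraries held 1391832 to 5423840 mapped reads (median 3945867), and the members drew 1 to 13027 reads per library with a median of 243. No member was at 0 in any library, and 2.14% of the members' values rested on fewer than 10 reads. Levels below are scaled RPKM, reads normalised to transcript length and mapped reads, with a further trimmed-mean scaling between samples. The libraries of NC 72 h replicates 2 and 3 differed by less than sampling noise and were counted as 1 sample, which leaves 5 samples in that group. Hierarchical clustering, set beforehand to give 2 clusters, put 15 samples in a larger and 8 in a smaller cluster. It used genes that are neither members nor pathway genes. Both clusters crossed all 4 groups (the smaller held KD 24 h 3 and 4, NC 24 h 5 and 6, KD 72 h 5 and 6, NC 72 h 4 and 5). The split was weak. Deviations from the group means correlated at a mean of 0.07 between samples of different groups in the same cluster. Across clusters the mean was -0.08. In NC 72 h 6, only 76.1% of low values were whole multiples of 1 read, against 95.2% to 95.7% elsewhere. Adipocyte markers were high throughout, with Adipoq (adiponectin) at a median of 2598 in NC 24 h and 913 in KD 72 h. Of 18 leukocyte markers in the table, 5, among them Cd3e, Cd79a, Nkg7 and Siglech, were at 0 in every sample and 15 averaged under 1 RPKM.

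The target had a lower mean in both knockdown groups, at low levels throughout, and its groups overlapped at 24 h. Ctcflos (1300015D01Rik, NR_040321) measured 0.00 to 0.620 deposited RPKM (median 0.0923) in KD 24 h and 0.178 to 1.38 (median 0.730) in NC 24 h. The KD mean was 25.5% of the NC mean (two-sided exact permutation test, p = 0.0455, n = 6 and 6). At 72 h it ran from 0.00 to 0.517 in KD and from 0.886 to 1.75 in NC, and the KD mean was 18.8% of the NC mean (exact permutation p = 0.00433, n = 6 and 5).

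The first question was how the interferon-stimulated genes behave in control cells as differentiation proceeds. All 37 members were lower in NC 72 h than in NC 24 h, and 34 fell by limma's test with Benjamini-Hochberg adjustment (adjusted p under 0.05 over all entries), where 4.65% of 10098 gene symbols fell and 4.87% rose, and 9.13% of 52691 entries passed in either direction. The median log2 change over the members was -1.90, with a range from -3.77 to -0.51, against 0.01 over all symbols tested. For 16 members the fall was over 4-fold. The mean level at 72 h was at a median of 27.1% of that at 24 h, from 10.1% to 71.6%, and for 27 members every NC 24 h sample lay above every NC 72 h sample, as for 4.12% of all symbols. Within the larger cluster of libraries 33 members fell (median -1.80), where 10.8% of all symbols passed in either direction, and within the smaller one 29 of 36 (median -1.88), where 3.58% passed.

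**Figure D1:**
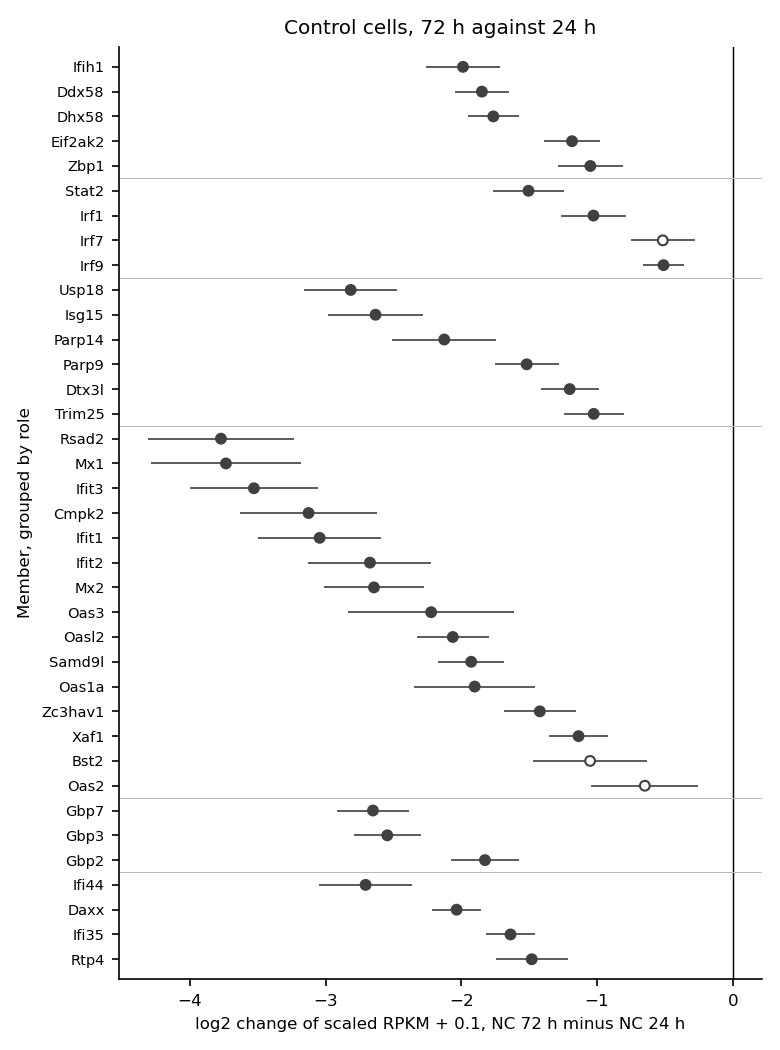
Log2 change from 24 h to 72 h in control cells for the 37 members, 1 point per gene with its standard error and filled where the gene passed the test. Every point lies below 0, from -0.51 for Irf9 to -3.77 for Rsad2.

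The effectors, which act on viral replication directly, had a lower median than every other role but the guanylate binding proteins. Of 15 effectors 13 fell, with a median log2 change of -2.22. Rsad2, which encodes viperin, ran from 45.5 to 213 in NC 24 h (median 125) and measured 4.39, 11.9, 3.80, 4.88 and 39.2 in the NC 72 h samples, a log2 change of -3.77 ± 0.54 (SE, adjusted p = 0.000483). The highest control sample at 72 h was replicate 6, which still lay below the lowest at 24 h. Cmpk2, a mitochondrial nucleotide kinase whose gene neighbours Rsad2, ran from 7.03 to 29.0 (median 16.3) and then measured 1.74, 2.09, 0.584, 0.907 and 7.16 (log2 change -3.13 ± 0.50). Its groups overlapped through replicate 6 alone.

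The IFIT proteins bind viral RNA. Ifit3 ran from 372 to 1243 in NC 24 h (median 891) and measured 42.5, 111, 43.7, 25.6 and 226 at 72 h (-3.53 ± 0.47). Ifit1 ran from 256 to 689 (median 491) and then measured 33.3, 87.2, 39.9, 22.1 and 206 (-3.04 ± 0.45). Ifit2 ran from 4.67 to 27.7 (median 13.2) and then measured 0.934, 2.36, 1.42, 1.30 and 5.10 (-2.67 ± 0.45). Ifit1 and Ifit3 did not overlap between the times, while the Ifit2 value of replicate 6 passed the lowest 24 h value. Adjusted p of the 3 genes ranged from 0.000304 to 0.00173.

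The Mx proteins are dynamin-like GTPases, and their genes lie side by side. Mx2 is annotated as a polymorphic pseudogene, and Mx1 was read from an entry that is not a curated mRNA. The values are transcript levels, and whether functional protein is made was not tested. Mx1 ran from 9.71 to 41.9 (median 25.1) in NC 24 h and measured 0.684, 1.76, 0.592, 1.48 and 8.47 at 72 h (-3.73 ± 0.55, adjusted p = 0.000649). Mx2 ran from 18.4 to 39.4 (median 30.1) and then measured 3.51, 6.06, 4.84, 1.56 and 10.6 (-2.64 ± 0.37, adjusted p = 0.000403). In both genes every 24 h control lay above every 72 h control. The oligoadenylate synthetases make the second messenger that activates RNase L, and their relative Oasl2 fell from a median of 54.6 (28.3 to 60.5) to 11.2, 14.2, 9.93, 6.03 and 19.1 (-2.06 ± 0.26, adjusted p = 0.000224). Oas3 ran from 0.988 to 3.56 (median 2.87) and then measured 0.704, 1.28, 0.0564, 0.0471 and 1.31 (-2.22 ± 0.61, adjusted p = 0.0345). Oas3 had low levels, its groups overlapped, and it was called under 14 of 22 alternative settings. Oas2 (-0.65 ± 0.39, adjusted p = 0.365) and Bst2 (-1.05 ± 0.42, adjusted p = 0.144) were the effectors that did not pass.

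All 6 members of the ISG15 system and the ADP-ribose enzymes fell, with a median of -1.82. Isg15, the ubiquitin-like modifier itself, ran from 101 to 273 in NC 24 h (median 203) and measured 29.8, 43.4, 20.4, 12.1 and 62.6 at 72 h (-2.63 ± 0.35, adjusted p = 0.00031). Usp18, the protease that removes ISG15 and dampens receptor signalling, ran from 122 to 223 (median 171) and then measured 16.7, 30.8, 21.6, 9.79 and 62.7 (-2.81 ± 0.34, adjusted p = 0.000163). Parp14, an ADP-ribosyltransferase, ran from 4.53 to 12.2 (median 8.22) and then measured 1.48, 3.29, 1.32, 0.644 and 3.90 (-2.13 ± 0.38, adjusted p = 0.00274). None of the 3 overlapped between the times, and NC 72 h 6 was again the highest late control in each.

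The 3 guanylate binding proteins, GTPases that attack the vacuoles of intracellular pathogens, fell by a median of 2.55 on the log2 scale. Gbp3 ran from 168 to 307 in NC 24 h (median 269) and measured 33.1, 52.0, 50.1, 21.7 and 60.5 at 72 h (-2.55 ± 0.24, adjusted p = 3.44e-05). Gbp7 ran from 24.8 to 57.1 (median 43.1) and then measured 5.53, 8.21, 5.39, 3.82 and 11.9 (-2.65 ± 0.26, adjusted p = 4.74e-05). The times did not overlap for either gene. Ifi44, an interferon-induced protein, fell from a median of 133 (60.5 to 155) to 13.4, 25.7, 17.3, 6.96 and 30.3 (-2.70 ± 0.34, adjusted p = 0.000198). Daxx, a histone H3.3 chaperone, ran from 21.9 to 42.3 (median 33.6) and then measured 6.43, 8.08, 7.42, 7.93 and 11.3 (-2.03 ± 0.18, adjusted p = 1.99e-05).

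The 5 sensors, among them Ddx58 (RIG-I) and Ifih1 (MDA5), all fell, with a median of -1.76. The 4 transcription factors had the median nearest to 0, at -0.77. Irf1 (-1.03 ± 0.24) and Stat2 (-1.50 ± 0.26) fell, Irf9 passed narrowly (-0.51 ± 0.15, adjusted p = 0.0452) and under 8 of 22 alternative settings, in neither cluster alone, and Irf7, the amplifier of type I interferon production, did not pass (-0.52 ± 0.24, adjusted p = 0.21). The called members for which no change is given above fell by 1.02 (Trim25) to 1.99 (Ifih1) on the log2 scale.

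**Figure D2:**
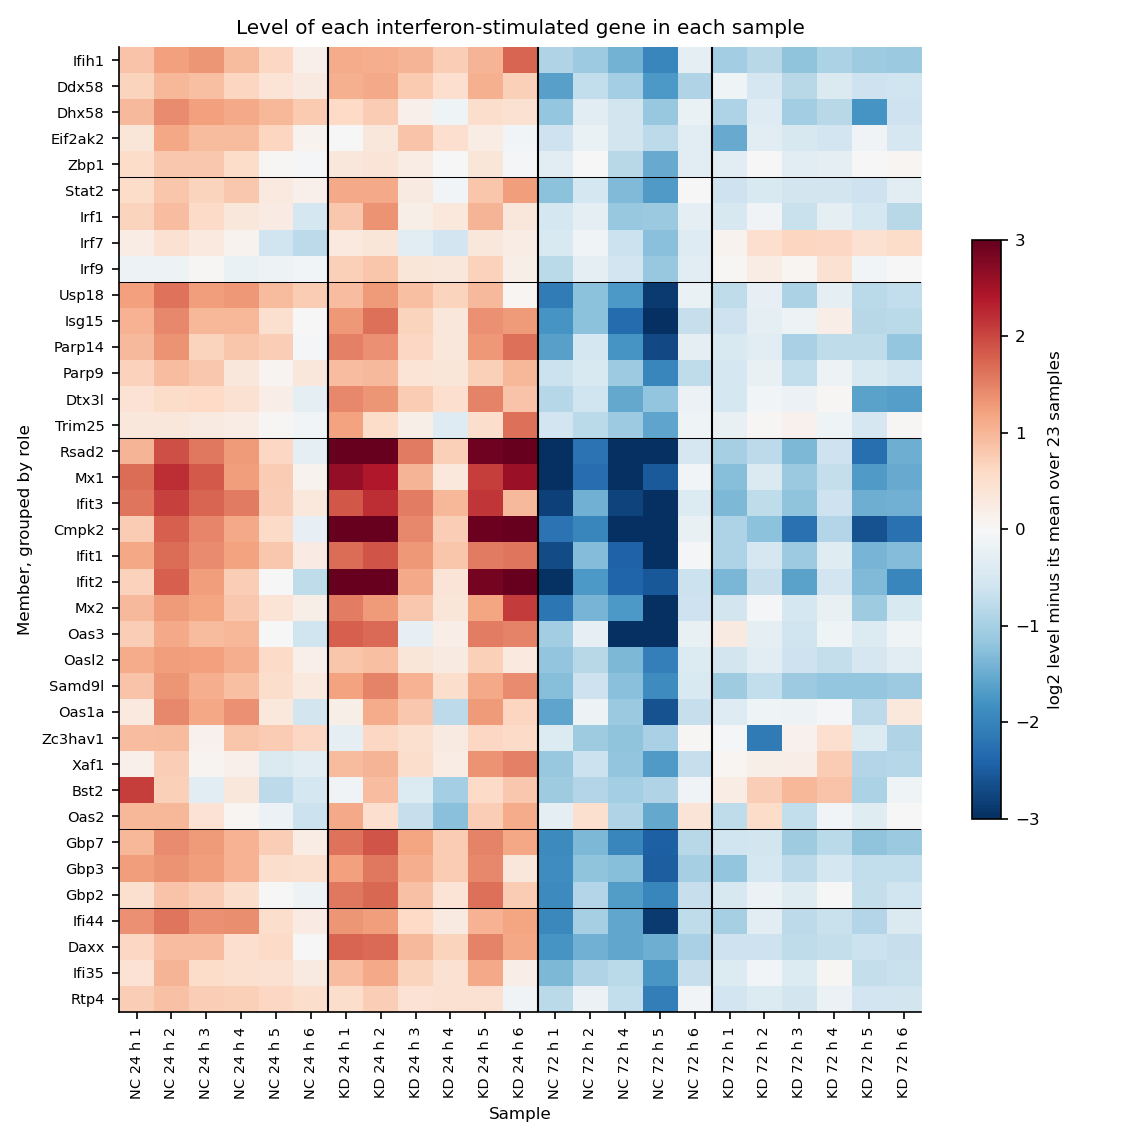
Log2 level of each of the 37 members minus its mean over 23 samples, with genes in rows grouped by role and samples in columns in the order NC 24 h, KD 24 h, NC 72 h, KD 72 h (colours end at -3 and 3). The 24 h columns are high and the 72 h columns low for nearly every gene, and KD 24 h 3 and 4, NC 24 h 5 and 6 and NC 72 h 4 and 5 stand below the others of their groups.

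The second question was whether knockdown of Ctcflos changed these genes at 24 h. At that time 26 of 37 members were higher in KD, and the median log2 change was 0.28 (range -0.70 to 1.72), against -0.01 over all symbols. By limma 8 members rose, where 11.1% of 9980 symbols rose, and 1 fell, where 12.6% fell (22.6% of 52006 entries passed in either direction). Of the 8, 4 were effectors, and 1 each was a guanylate binding protein, a transcription factor, an ISG15-system gene and Daxx. Within the larger cluster 10 rose and 4 fell, Eif2ak2 (PKR) and Oasl2 among the latter, where 26.3% of all symbols passed. Within the smaller 1 rose and 1 fell, where 2.69% passed. Without KD 24 h 1 or without NC 24 h 6 the count of 9 was 4, and without KD 24 h 2 or KD 24 h 5 it was 5. Of all symbols, 18.1% to 19.2% passed in these fits, against 23.7% with all samples.

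Rsad2, Cmpk2 and Ifit2 rose most, with wide scatter in the knockdown libraries. Rsad2 ran from 91.9 to 572 in KD 24 h (median 463) against the 45.5 to 213 of the controls, a log2 change of 1.47 ± 0.46 (adjusted p = 0.0317). Cmpk2 ran from 13.9 to 126 (median 69.7), a change of 1.70 ± 0.49 (adjusted p = 0.0224). Ifit2 ran from 10.5 to 80.2 (median 62.2), a change of 1.72 ± 0.52 (adjusted p = 0.0292). In all 3 the lowest KD samples overlapped the controls. Within the larger cluster the changes were 1.72, 2.10 and 2.01, and within the smaller 0.98, 0.92 and 1.15, where none passed. Rsad2 and Ifit2 were called under 13 of 22 alternative settings.

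Daxx ran from 35.4 to 74.9 in KD 24 h (median 56.0), a change of 0.70 ± 0.20 (adjusted p = 0.0235). Outside the 16 genes with the largest changes, a few members are named because of their values. Irf9, the DNA-binding subunit of ISGF3, was the 1 member of 37 for which every KD 24 h sample lay above every control (4.95% of all symbols), at 22.5 to 35.8 (median 29.1) against 17.3 to 20.5 (median 17.8), a change of 0.64 ± 0.13 (adjusted p = 0.00445). Its gene overlaps Rnf31 on the same strand. Xaf1, a proapoptotic protein (0.87 ± 0.23, adjusted p = 0.0154), the ubiquitin ligase Dtx3l (0.74 ± 0.19, adjusted p = 0.0138) and Gbp2 (0.76 ± 0.24, adjusted p = 0.0351) completed the genes that rose.

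Dhx58, which encodes LGP2, a helicase that modulates RIG-I and MDA5, fell. It ran from 10.8 to 20.2 in KD 24 h (median 16.6) and from 20.3 to 31.9 in NC 24 h (median 25.0), a change of -0.70 ± 0.16 (adjusted p = 0.00844). It was the 1 member with every KD sample below every control, as 7.52% of all symbols were. The annotated antisense gene Dhx58os overlaps it, and since the sources used here do not state how strand was treated, reads of the pair cannot be told apart. Many of the genes that fell most in controls over time did not pass at 24 h, among them Isg15 (0.28 ± 0.25, adjusted p = 0.43), Ifit3 (0.29 ± 0.29, adjusted p = 0.5), Ifit1 (0.39 ± 0.22, adjusted p = 0.207), Usp18 (-0.39 ± 0.19, adjusted p = 0.142) and Gbp3 (0.09 ± 0.21, adjusted p = 0.792).

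**Figure D3:**
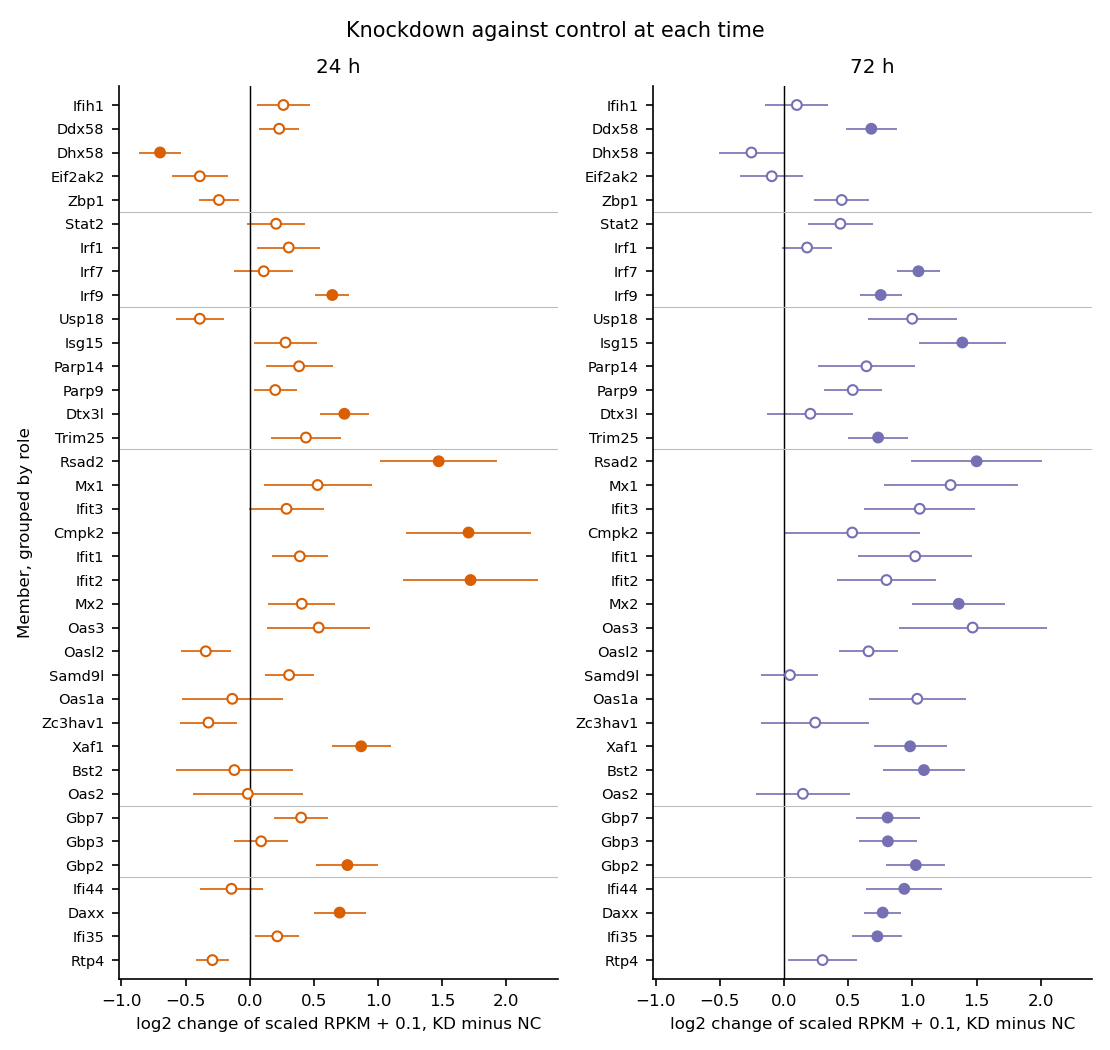
Log2 change in KD against NC for the 37 members at 24 h and at 72 h, 1 point per gene with its standard error and filled where the gene passed the test. At 24 h the points lie on both sides of 0 with a median of 0.28, and at 72 h 35 of 37 lie above 0 with a median of 0.75.

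At 72 h, 35 of 37 members were higher in KD than in NC, with a median log2 change of 0.75 (range -0.25 to 1.50) against 0.01 over all symbols. By limma 15 members rose, where 10.8% of 10424 symbols rose. No member fell, also at an unadjusted p under 0.05 or with voom, where 12.6% of symbols fell (22.3% of 54138 entries passed in either direction). The risers were 4 effectors (Rsad2, Mx2, Xaf1 and Bst2), all 3 guanylate binding proteins, Daxx, Ifi35 and Ifi44, Irf7 and Irf9, Isg15 and Trim25, and Ddx58. Of these, Trim25 was called under 10 of 22 alternative settings, Rsad2 under 9, Bst2, Gbp7 and Ifi44 under 13 each and Ddx58 under 16. Within the larger cluster 9 rose (median 0.57, 29 of 37 higher), where 25.5% of all symbols passed in either direction, and within the smaller 15 of 36 (median 1.05), where 10.4% passed. The count was 9 without NC 72 h 1, 8 without NC 72 h 5 and 23 without NC 72 h 6. On the deposited scale, where the median of all symbols was itself 0.25, 25 members passed with a median of 1.00, and 80.4% of all symbols called were higher, against 46.3% after scaling.

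Isg15 ran from 57.1 to 116 in KD 72 h (median 74.2) against 12.1 to 62.6 in the controls (1.39 ± 0.34, adjusted p = 0.00987). Mx2 ran from 7.66 to 15.7 (median 11.4) against 1.56 to 10.6 (1.36 ± 0.36, adjusted p = 0.0157). Rsad2 ran from 11.6 to 36.4 (median 25.0) against 3.80 to 39.2 (1.50 ± 0.51, adjusted p = 0.0475). In these 3 genes the highest control, NC 72 h 6, lay within or above the KD range. Daxx varied little between samples and ran from 13.0 to 14.3 (median 14.0), above all controls at 6.43 to 11.3 (0.77 ± 0.14, adjusted p = 0.00176).

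Among the guanylate binding proteins, Gbp3 ran from 53.2 to 83.6 in KD 72 h (median 72.0, change 0.81 ± 0.23, adjusted p = 0.0193). Gbp7 ran from 9.15 to 14.3 (median 11.0, change 0.81 ± 0.25, adjusted p = 0.0318). Ifi44 ran from 25.6 to 40.7 (median 31.0, change 0.94 ± 0.30, adjusted p = 0.0357). Among the controls, NC 72 h 6 alone lay within the KD range of Gbp3 and Gbp7, while NC 72 h 6 and NC 72 h 2 lay within that of Ifi44. Ifit1 (1.02 ± 0.44, adjusted p = 0.114), Ifit3 (1.06 ± 0.43, adjusted p = 0.0935), Mx1 (1.30 ± 0.52, adjusted p = 0.0893), Oas3 (1.47 ± 0.58, adjusted p = 0.0814), Usp18 (1.00 ± 0.35, adjusted p = 0.0531) and Oasl2 (0.66 ± 0.23, adjusted p = 0.0522) had positive changes and did not pass. Cmpk2 (0.53 ± 0.53) and Ifit2 (0.80 ± 0.38), which rose at 24 h, did not pass either.

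Named for its values, Irf7 ran from 151 to 217 in KD 72 h (median 199.6) and measured 102, 129.7, 88.8, 58.2 and 106 in the controls, without overlap (1.05 ± 0.17, adjusted p = 0.000695). At 24 h its groups were at medians of 167 in KD and 155 in NC (0.11 ± 0.23, adjusted p = 0.76). Irf9 ran from 18.8 to 27.5 in KD 72 h (median 20.7) against 8.92 to 16.2, also without overlap (0.75 ± 0.16, adjusted p = 0.00487). Daxx, Irf7 and Irf9 were the 3 of 37 members with every KD 72 h sample above every control, a share near the 6.38% of all symbols. Rsad2, Xaf1, Gbp2, Daxx and Irf9 rose at both times, and 19 members passed at either, with Dhx58 the one that fell.

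**Figure D4:**
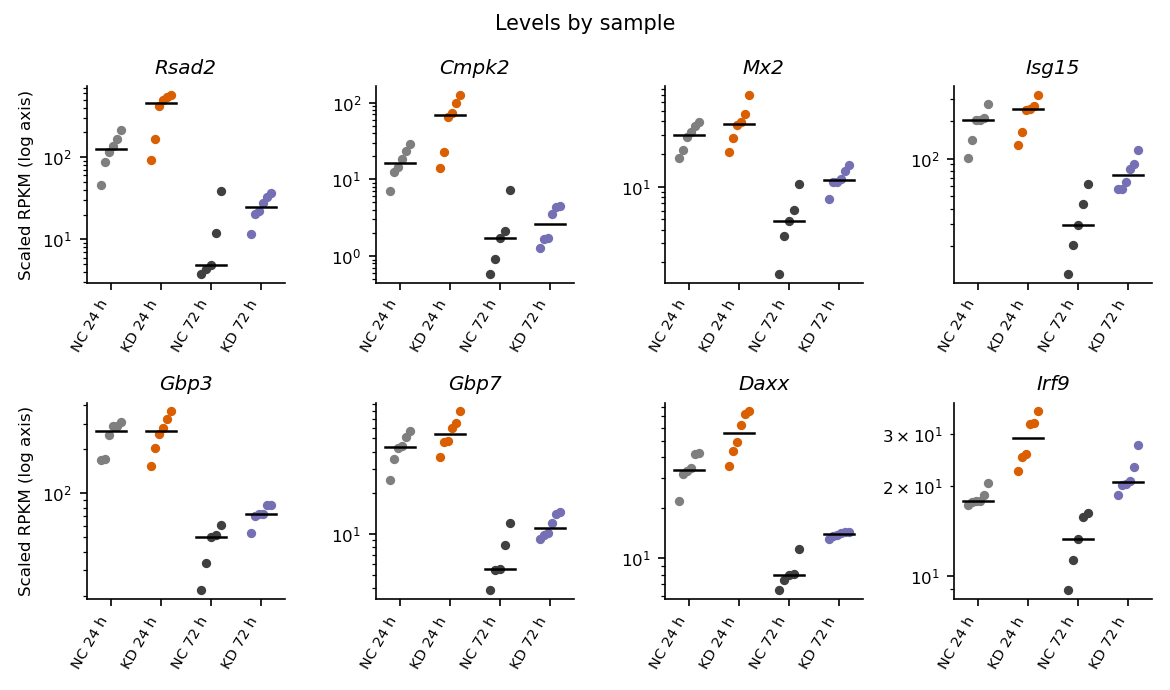
Scaled RPKM per sample on a log axis for Rsad2, Cmpk2, Mx2, Isg15, Gbp3, Gbp7, Daxx and Irf9 in the 4 groups, with a bar at each median. For 7 of these 8 genes the KD 72 h median lies between those of NC 72 h and NC 24 h, for example at 74.2 for Isg15 against 29.8 and 203.

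The knockdown cells also had lower levels at 72 h than at 24 h. The KD 72 h mean was at a median of 36.6% of the KD 24 h mean, it lay below it for 35 of 37 members, and it lay below the NC 24 h mean for 35 as well. This fall in KD was not tested, and no share over all symbols was computed for it. Whether the knockdown effect itself differed between the times was tested as an interaction. By limma 0 members passed, where 0.198% of 11125 symbols passed upwards and 0.0809% downwards (0.202% of 59265 entries in either direction), and 7 had an unadjusted p under 0.05, as 12.5% of all symbols had. These were Isg15, Usp18, Oasl2, Gbp3, Ifi44, Zbp1 and Irf7, all with a more positive change at 72 h and adjusted p from 0.167 to 0.399. With voom on recovered reads 0 passed as well. Within the smaller cluster 4 passed (Zbp1, Irf7, Isg15 and Oas3), where 2.98% of all symbols passed. Without NC 72 h 6 the count was 1, where 0.229% passed. The median interaction was 0.44 on the log2 scale. Of all symbols that passed the interaction, 71.0% had a more positive change at 72 h, and 97.2% on the deposited scale. These comparisons share control samples: NC 24 h and NC 72 h each enter the time, knockdown and interaction values, so a high or low control moves them together.

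Replicates of the members scattered together. The median SD of log2 level within a group was 0.62 over the members in NC 72 h, against 0.33 over 11125 symbols, with 35 of 37 members above that median. In NC 24 h it was 0.42 against 0.30, with 30 members above. In the knockdown groups it was 0.43 against 0.45 at 24 h and 0.30 against 0.32 at 72 h. Among symbols above the median level, the SD was 0.35 in KD 24 h, 0.20 in NC 24 h, 0.23 in KD 72 h and 0.23 in NC 72 h, below that of the members in each group. With a pseudocount of 1, KD 24 h was at 0.42 against 0.33 over all symbols, with 27 members above. Over 23 samples, deviations from the group means of 98.2% of 666 member pairs were positively correlated (median r = 0.67, range -0.21 to 0.96), a description in which all points share libraries and scaling.

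The mean log2 deviation of the members from their overall level gave each sample 1 value. It was 1.13 to 1.36 in the larger and 0.27 to 0.64 in the smaller cluster of KD 24 h, and 0.78 to 1.17 and 0.01 to 0.36 in NC 24 h. At 72 h it was -0.62 to -0.29 and -0.86 to -0.72 in KD, and -1.48 to -0.40 and -2.10 to -1.60 in NC. In every group the smaller-cluster samples lay below those of the larger cluster. Markers of other cell types moved with the same split, beginning with leukocyte markers. Their summed RPKM was 2.85 to 11.2 in the larger and 25.8 to 26.9 in the smaller cluster of KD 24 h, 6.38 to 13.6 and 33.6 to 39.5 in NC 24 h, and 10.01 to 18.5 and 32.5 to 39.8 in NC 72 h, so member levels were lower in the cluster where this sum was higher. Much of the sum was Lyz2, at 24.2 of 39.5 in NC 24 h 6. Csf1r was higher in the smaller cluster in NC 24 h (1.68 to 2.12 against 0.886 to 1.43). It did not follow the split in KD 24 h (2.76 to 4.05 against 1.88 to 4.81) or NC 72 h (2.24 to 2.61 against 1.97 to 2.98). In KD 72 h the leukocyte sums were 10.5 to 13.7 and 7.62 to 14.2, and single markers within them went different ways. There Csf1r was at 6.48 to 8.11 in the larger and 3.17 to 4.38 in the smaller cluster. Lyz2 was at 0.217 to 0.794 in the larger and 1.33 to 3.89 in the smaller. The summed RPKM of stromal progenitor markers split the other way in all 4 groups. It was 711 to 778 in the larger and 384 to 439 in the smaller cluster of KD 24 h. In NC 24 h it was 774 to 1003 and 418 to 451. In KD 72 h it was 780.1 to 833 and 662 to 739. In NC 72 h it was 735 to 991 and 352 to 541. Most of this sum was Ly6a, at 755 of 778 in KD 24 h 1. Pdgfrb followed the split in KD 24 h (11.3 to 14.1 in the larger and 9.86 to 10.1 in the smaller cluster). It did not in NC 24 h (8.99 to 12.6 and 10.3 to 11.0) or at 72 h. It was at 17.0 to 20.9 in the larger and 19.5 to 24.2 in the smaller cluster of KD 72 h. In NC 72 h it was at 10.3 to 14.2 and 13.1 to 16.2. Brite marker sums were higher in the larger cluster in KD 24 h (403 to 476 against 325 to 334), NC 24 h (704 to 888 against 457 to 469) and NC 72 h (1865 to 2121 against 1258 to 1303), and lower in KD 72 h (378 to 511 against 578 to 728). The part of these markers in the results was not tested.

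**Figure D5:**
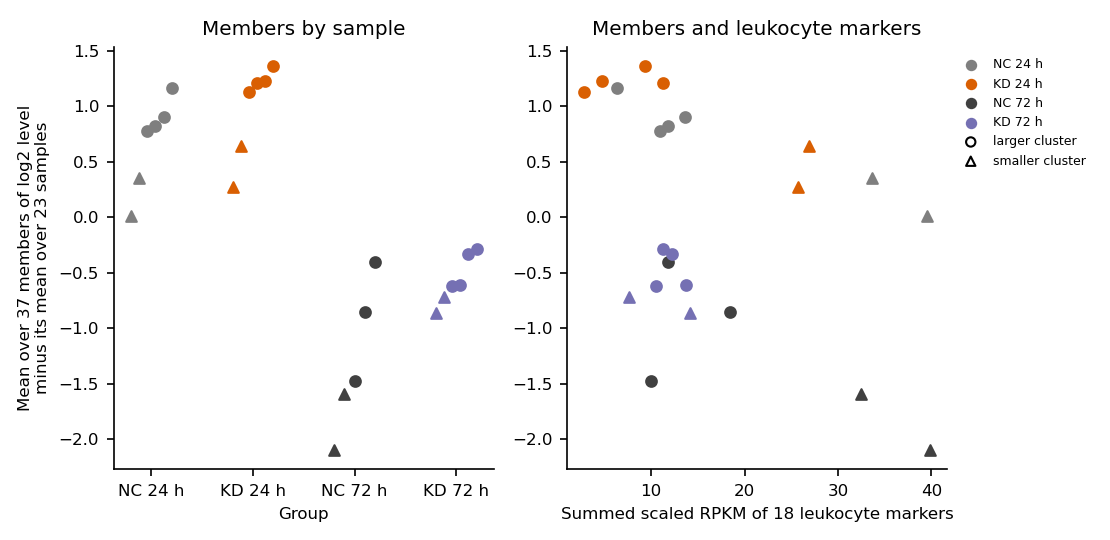
Mean log2 deviation of the 37 members from their mean over 23 samples, by group (left) and against the summed RPKM of 18 leukocyte markers (right), with circles for the larger and triangles for the smaller cluster of libraries. Values span 1.69 in NC 72 h and 0.57 in KD 72 h, and triangles lie below circles in each group.

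Between the groups compared, other markers moved as well. Brite and brown markers such as Ucp1, the uncoupling protein of thermogenic fat, fell in KD in 4 of 5 at 24 h and 5 of 5 at 72 h, and adipocyte markers in 3 and 4 of 7. In controls over time 3 of the brite markers rose. Of 3 leukocyte markers with enough reads, Csf1r rose in KD (1.21 and 1.23 on the log2 scale at 24 h and 72 h) and Lyz2 fell at 72 h (-3.68). Of 4 stromal markers tested at 72 h, 2 rose in KD. In bulk RNA, fewer cells of a type and less RNA per cell cannot be told apart, and the part of these markers in the members' values was not tested.

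Interferon transcripts themselves had few reads or none. Ifna1, Ifna2, Ifna4, Ifnl2 and Ifnl3 had 0 reads in all 24 libraries (a count of 0 allows up to 3 reads in a library), Ifng had 7.5 reads in 2 libraries of KD 72 h (reads were recovered from RPKM and need not come out whole), and Ifnb1, the first interferon made by most cells, had 15.5 reads in 8 libraries. Of these, 8 were in KD 24 h, 7 in NC 24 h, 0 in KD 72 h and 0.5 in NC 72 h. These few reads allow no comparison between groups.

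A wider list of 58 pathway genes was read beside the members. In control cells over time, 17 of 44 tested fell and 2 rose, with a median of -0.68, against 4.65% and 4.87% of all symbols. Herc6, an ISG15 ligase (-2.88), and Ddx60, a helicase (-2.45), fell most, while the receptor chain Ifnar2 (0.90) and the kinase Jak1 (0.51) rose. In KD at 24 h 6 of 44 rose and 5 fell, with a median of 0.08, where 11.1% of all symbols rose and 12.6% fell. At 72 h 6 of 42 rose and 4 fell, with a median of 0.13, against 10.8% and 12.6%. Both are shares near the background. The pathway list did not move in 1 direction with knockdown. The RNA editor Adar (0.87 at 24 h and 1.01 at 72 h), the immunoproteasome subunit Psmb8 (1.01 and 0.93) and the ubiquitin ligase Rnf135 (1.37 and 0.90) rose at both times. In the interaction 0 of 45 passed.

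The kinase Jak1, which carries the signal from the receptor, went the other way from most members. Jak1 fell by 0.68 ± 0.19 at 24 h and by 1.07 ± 0.14 at 72 h in KD. The receptor chain Ifnar1 did not pass in any of these comparisons (-0.04 and -0.03 in KD at 24 h and 72 h, 0.34 in controls over time).

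Members with and without an ISRE in the promoter window overlapped in their changes. In controls over time the median was -2.10 for the 14 with a match and -1.53 for the 14 without, and 13 of each fell. In KD the medians were 0.27 and 0.37 at 24 h, with 2 and 6 called, and 1.02 and 0.73 at 72 h, with 7 called in each. Rsad2 held a match and its neighbour Cmpk2 and the effector Ifit2 held none. These values are given without a test.

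Several members lie close together in the genome. In 6 groups of neighbours with gaps of at most 200 kb lay 16 members, namely Rsad2 and Cmpk2 (37.1 kb), Parp14, Dtx3l and Parp9 (140 kb), Mx1 and Mx2 (114 kb), Ifit1, Ifit2 and Ifit3 (99.3 kb), Gbp2, Gbp3 and Gbp7 (108 kb) and Oas1a, Oas2 and Oas3 (177 kb), by GENCODE M21 gene models on GRCm38. The last 4 groups are families of similar sequence whose reads the counting could have split between members, so their individual values are uncertain. Of the 37 members, 11 overlap an annotated gene on the other strand and 4 on the same strand. Zbp1, a sensor of Z-form nucleic acids, lies 73.4 kb from Ctcflos, the knocked-down gene. It did not pass in KD at 24 h (-0.24 ± 0.16, adjusted p = 0.28) or 72 h (0.45 ± 0.21, adjusted p = 0.148). Within the larger cluster of libraries it fell by limma at 24 h (-0.41, adjusted p = 0.0438). Within the smaller it did not pass (0.11).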

How the data were processed

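Per the labels, total RNA was converted to 3′-end libraries with barcoded oligo-dT primers (BRB-seq), tagmented with Tn5 and sequenced on a NextSeq 500. The authors deposited RPKM values per transcript entry from the Genomatix suite, against NCBI RefSeq per their methods. Genome build, tool versions and strand handling are not given in the sources used here. RPKM divides by transcript length, which 3′ reads do not scale with. No test compared levels between genes, and the sums of marker RPKM carry this length weighting.

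Reads were recovered from the RPKM steps for filtering and checks only. The 2 control libraries that agreed within sampling noise were averaged. Values were scaled by trimmed means of log ratios (factors 0.918 to 1.233) and tested as log2(scaled RPKM + 0.1) with limma 3.58.1 (lmFit, eBayes with trend) in R 4.3.3, on all entries reaching 10 reads at median depth in as many samples as the smaller group, and 15 reads over all. P-values were two-sided and adjusted by Benjamini-Hochberg over all entries. Fold changes on this scale understate those of low genes. Scripts were checked on simulated data.

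Genes described by sample were the 16 members with the largest absolute log2 change among those called in any comparison, and the others were summarised by role. The members, pathway genes and markers were chosen with earlier results of these data known. Replicate numbers did not pair the samples. Alternatives covered scaling, pseudocount, filter, entries, voom, replicate block, clusters and left-out libraries.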

Additional observations from a re-analysis of the deposited data

Results flagged for a closer look

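A test for single stray samples was run on 148 groups of member values, and 8 of them held a sample far from the others. It used scaled RPKM without a log, a scale on which high values stand out more easily than low ones. Chance flags about 1 in 20 groups. All 8 stray samples were high, and 4 were in NC 72 h 6, the library in which fewer low values were whole reads. There, Rsad2 was at 39.2 scaled RPKM against 11.9 in the next sample, Mx1 at 8.47 against 1.76, Cmpk2 at 7.16 against 2.09 and Bst2 at 6.60 against 3.84. Bst2, which encodes tetherin, was also high in NC 24 h 1, at 30.5 against 11.9. The others were Ifi35 in NC 24 h 2 at 173 against 126, Samd9l in KD 72 h 2 at 11.6 against 9.12, and Ifih1 in KD 24 h 6 at 33.0 against 21.2.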

How the results depend on the processing

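The fall of the members in controls over time depended little on the settings tried: 34 members were called, and 29 to 34 under the 22 alternatives, with no direction of a called member turned. Of all symbols, 3.58% to 12.9% were called under these alternatives, against 9.53% in the main fit. The knockdown counts depended more on the settings. At 24 h, 9 members were called, 14 within the larger and 2 within the smaller cluster of libraries, and 4 to 9 with single libraries left out. With single libraries left out, 18.1% to 28.2% of all symbols were called. Of the 9 members, Dhx58 and Xaf1 were called under every alternative. At 72 h, 15 were called, 25 on the deposited scale, 9 within the larger cluster, and 8 to 23 with single libraries left out. These left-out fits called 19.2% to 23.9% of all symbols. Daxx, Gbp2, Irf7, Isg15 and Mx2 were called under every alternative. For the interaction, 0 were called, 4 within the smaller cluster, and 0 to 1 with single libraries left out. With no filter on low values 6 members were called at 24 h and 10 at 72 h, while the share of all symbols called was 8.94% and 10.2%, against 23.7% and 23.4% with the filter. The cause of these changes was not tested.

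Replicate numbers are shared between groups, but same-numbered samples did not deviate together (mean correlation 0.01, pairs from -0.15 to 0.17). With the replicate block 8 members were called at 24 h, 12 at 72 h, 32 in controls over time and 0 in the interaction. Of all symbols, 17.3%, 15.4%, 5.88% and 0.0899% were called with the block, against 23.7%, 23.4%, 9.53% and 0.279% without it. The calls lost were Rsad2 at 24 h, Rsad2, Bst2, Ddx58 and Trim25 at 72 h, and Irf9 and Oas3 over time.

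Low-level members such as Oas3 and Zc3hav1, whose values can rest on few reads, are limited by depth.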
